A study of Mus musculus with 9 samples.

Results

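The genes described here encode the nuclear part of the mitochondrial respiratory chain. They were chosen by symbol from a table of 13588 entries, as every gene whose name begins with Nduf, Sdha to Sdhd, Uqcr, Cox4 to Cox8 or Atp5, without pseudogenes. This gave 88 genes, of which 44 belong to complex I, 7 to complex II, 8 to complex III, 12 to complex IV and 17 to complex V, and all 88 were tested. A further 13 annotated mouse symbols of the same families had no entry in the table. The libraries came from male mice of the strain labelled C57/BL6, all of which carried the floxed Snord116 allele (genotype Snord116tm1Uta/J). Of the mice, 3 had received AAV-GFP and 6 AAV-Cre into the mediobasal hypothalamus at 10 to 12 weeks of age, and a region captured by laser from that tissue was sequenced from each mouse at 10 weeks after injection. The regions followed Cre staining of neighbouring sections and were matched in AAV-GFP mice. The sample labels split the AAV-Cre mice into 3 labelled obese and 3 labelled nonobese. Their titles say the opposite, since the word obese stands in the titles of the nonobese samples, so the weight label is used as a name throughout. Cre was driven by the CAG promoter and GFP by the CMV promoter, and neither is restricted to a cell type. The AAV-Cre stock also held more vector genomes per ml than the AAV-GFP stock, so transgene, promoter and dose cannot be told apart. A captured region is whole tissue and holds neurons, glia and vessels.

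The respiratory chain sits in the inner mitochondrial membrane. Complex I takes electrons from NADH and complex II from succinate, complex III passes them to cytochrome c, and complex IV reduces oxygen. Complexes I, III and IV pump protons, and complex V, the ATP synthase, uses the gradient to make ATP. A few core subunits carry out catalysis, and in complexes I, III, IV and V some of these are encoded by mitochondrial DNA, while many small accessory subunits surround them and assembly factors build the complexes without staying in them. Neurons rely heavily on this pathway. Because the genes lie on many chromosomes, their joint expression has been studied mainly through transcription factors that bind near their starts, among them NRF1, the ETS factor GABP and YY1.

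RefSeq promoter windows (GRCm38.p6, from 250 bases before to 50 bases after a start) were matched for 75 of the 88 genes, and the 13 without a window included Atp5a1, Atp5mpl, Cox4i1, Cox6c, Ndufa2, Ndufaf6, Ndufb9, Ndufs1, Sdhc, Uqcrb, Uqcrc2 and Uqcrq. Both strands were searched for 4 short motifs. The NRF1 motif GCGCANGCG stood in the windows of 24 genes (32% of 75, against 7.03% of the 27025 genes of the promoter table). The ETS core CCGGAAG stood in those of 20 genes (26.7% against 9.93%), and the YY1 motif AAGATGGCG in those of 8 (10.7% against 1.64%). The TATA box TATAAA was found in 6 (8% against 15.7%). Windows of members were richer in G and C, with a median of 58.8% against 52.7% for all windows. The 27025 genes were not limited to those with an entry here. The part of either in the motif shares was not tested. By complex, the NRF1 motif was found in 10 of 39 genes of complex I, 4 of 6 of complex II, 2 of 5 of complex III, 1 of 10 of complex IV and 7 of 15 of complex V. A match is a run of letters and not a bound site. The stretches below run from 110 bases before to 50 bases after the start, 5′ to 3′ on the strand of the gene, with motif letters in capitals. Cox8a and Ndufa5 are shown because they had the lowest p values between the AAV-Cre subsets (other members had larger fold changes), Atp5k and Uqcrh because they had low p values against AAV-GFP, and Sdha because it varied little among AAV-GFP mice. All 5 lie on the minus strand, at chr19:7217567-7217726 for Cox8a, chr6:24527641-24527800 for Ndufa5, chr5:108434350-108434509 for Atp5k, chr4:116075021-116075180 for Uqcrh and chr13:74350191-74350350 for Sdha.
Cox8a: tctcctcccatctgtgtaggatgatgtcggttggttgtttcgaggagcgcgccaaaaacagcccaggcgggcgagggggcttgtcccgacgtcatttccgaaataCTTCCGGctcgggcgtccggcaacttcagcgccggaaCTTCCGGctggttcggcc
Ndufa5: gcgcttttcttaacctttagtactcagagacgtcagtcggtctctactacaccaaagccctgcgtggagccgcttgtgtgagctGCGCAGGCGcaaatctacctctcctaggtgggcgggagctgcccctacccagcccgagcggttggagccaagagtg
Atp5k: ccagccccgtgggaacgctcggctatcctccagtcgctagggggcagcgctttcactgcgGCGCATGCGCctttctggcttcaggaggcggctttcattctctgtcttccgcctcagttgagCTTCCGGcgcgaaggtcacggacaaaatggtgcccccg
Uqcrh: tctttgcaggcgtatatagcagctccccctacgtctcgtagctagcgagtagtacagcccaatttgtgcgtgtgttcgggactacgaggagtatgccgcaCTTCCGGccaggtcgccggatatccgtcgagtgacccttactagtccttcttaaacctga
Sdha: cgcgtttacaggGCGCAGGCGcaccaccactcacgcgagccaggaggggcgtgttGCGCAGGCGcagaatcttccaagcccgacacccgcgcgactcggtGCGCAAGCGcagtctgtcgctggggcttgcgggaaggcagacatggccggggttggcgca
Cox8a held the ETS core at 2 places, on the reverse strand, and Uqcrh held it once. Sdha held the NRF1 motif 3 times and Ndufa5 once, and the capitals in Atp5k mark 2 overlapping NRF1 matches followed by an ETS core.

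The deposited values are reads per gene divided by a scaled library size and are called signal here, in units close to CPM. Totals were between 3929672 and 5766994 reads per library, and the members held 21460 to 36549 of them. Their total over the 9 libraries was 220 to 24077 reads per gene, with a median of 2096.5. The smallest signal taken as distinct from 0, 3 reads, was between 0.525 and 0.786, which covers counting error only. Vector transcripts followed the labels, with Gfp at 317 to 350 reads in AAV-GFP mice and 0 in AAV-Cre mice, and Cre at 1011 to 37704 reads in AAV-Cre mice and 0 to 5 in AAV-GFP mice. The RNA targeted for deletion, Snord116, was not measured in these libraries. By qPCR in a separate set of mice, the study found it reduced but not absent in the mediobasal hypothalamus after AAV-Cre. Libraries 1 and 3 of the mice labelled obese stood apart. The summed signal of 7 leukocyte and plasma cell markers was 3778 and 6081 in them, 78.5 in library 2 of that subset, 33.9 to 41.2 in mice labelled nonobese and 6.98 to 10.1 in AAV-GFP mice. Cre was also lowest in obese libraries 1 and 3, at 1330 and 235 signal, against 4644 to 8557 in the other AAV-Cre libraries. The part of this in the results on the members was not tested. The 6 markers of the mediobasal hypothalamus summed to 109 and 25.8 signal in obese libraries 1 and 3. Low sums were not limited to them, with 33.8 in library 3 of AAV-GFP and 84.5 in library 3 of the nonobese subset. The other libraries had 148.6 to 300.4. Agrp was at 0 reads in obese libraries 1 and 3, and Nr5a1 in them, in library 3 of AAV-GFP and in library 3 of the nonobese subset. Fezf1 was at 0 reads in library 3 of AAV-GFP. All AAV-Cre libraries shared an index primer that no AAV-GFP library carried, so vector and index cannot be told apart, and the labels do not say more about batches.

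Levels were compared between genes per kb of their main transcript, over all 9 libraries. The core subunits of complex V, which form the catalytic head of the ATP synthase and its stalk, had the highest median (105 signal per kb, 5 genes). Assembly factors had the lowest medians in complexes I, II and V, but Cox7a2l, the single one of complex IV, was at 63.8. Atp5b, the catalytic beta subunit (chromosome 10, 128083273 to 128090391 of GRCm38), had 299 ± 33.5 signal per kb (SD, n = 9). It was followed by Cox8a, a small accessory subunit of cytochrome c oxidase, at 249 ± 68.6, by Cox6c at 236 ± 44.8 and by Atp5h, a stalk subunit, at 230 with a spread that overlaps both. The mean ± SD of each of these genes overlapped that of the next in this order. Those of Atp5b and Atp5h (230 ± 34.1) did not overlap, and differences in level between genes were not tested. In complex I the highest level was that of the accessory subunit Ndufa6, at 158 ± 39.5 signal per kb, and in complex III that of the hinge protein Uqcrh, at 194 ± 60.9. In complex II it was Sdha, the flavoprotein that oxidizes succinate, at 97.0 ± 13.6.

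Subunits of the same complex were not at the same RNA level. The median per kb was 39.5 signal for the 7 core subunits of complex I and 51.9 for its 29 accessory subunits, which ran from 10.9 to 158. In complex II, Sdha was at 97.0 and Sdhb, its iron-sulfur partner, at 64.3 ± 12.2, while the membrane anchors were at 22.5 ± 6.40 (Sdhd) and 12.2 ± 1.78 (Sdhc) signal per kb. In complex III the core proteins Uqcrc1, Uqcrfs1 (the Rieske iron-sulfur protein) and Uqcrc2 were at 71.1 ± 9.45, 37.6 ± 9.46 and 26.8 ± 7.96. Assembly factors had medians of 8.80 signal per kb in complex I (8 genes) and 7.13 in complex II (3 genes). The lowest member was Sdhaf3, an assembly factor of complex II, at 2.24 ± 1.09. These levels depend on the transcript length used. Per kb of all annotated exons, Cox8a was the highest member at 222 signal and Atp5b was at 135, while Cox6c was at 40.2. On that scale the median was 64.2 for the core subunits of complex V and 64.4 for the accessory subunits of complex IV, Ndufb10 in place of Ndufa6 was the highest of complex I, and Atp5g2 in place of Atp5s the lowest of complex V.

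**Figure D1:**
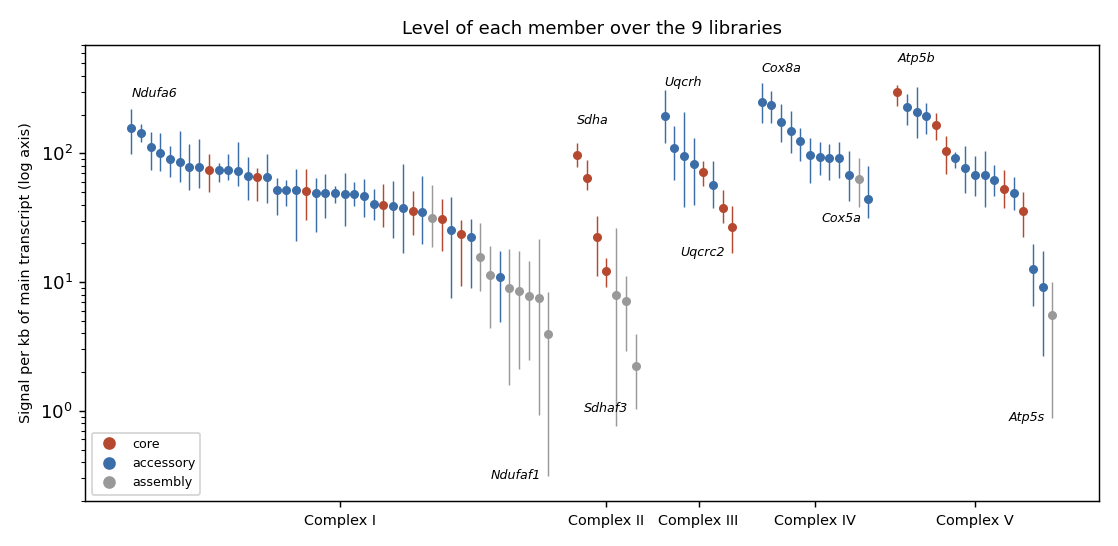
Signal per kb of main transcript (log axis) for each of the 88 genes, ordered within its complex. Points are means over the 9 libraries, lines run from the lowest to the highest library, and colours mark core subunits, accessory subunits and assembly factors. Atp5b is highest at 299, and most assembly factors lie under 12.

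Paralogs for the same subunit differed in level. Cox4i1, Cox6a1, Cox7a2 and Cox8a, the broadly expressed isoforms of complex IV, were all measured, whereas Cox4i2, Cox6a2, Cox7a1 and Cox8b, known from lung, muscle or heart, and Ndufa4l2 had no entry in the table. Cox4i1 was at 115.9, 117 and 125 signal in AAV-GFP mice, at 89.1, 113 and 75.7 in mice labelled obese and at 85.4, 160 and 126 in those labelled nonobese. The obese subset lay below AAV-GFP and the nonobese subset on both sides of it, and neither log2 fold change (log2 FC), −0.38 and 0.01, passed an FDR of 0.1. Of the 3 genes for the c subunit of the ATP synthase, which make the same mature protein, Atp5g3 gave most signal in every library, 52.1% to 71.0% of their sum. Atp5g1 gave 20.53% to 40.1% and Atp5g2 1.38% to 9.6%. Per kb, the share of Atp5g3 was 72.0% to 85.2%. Reads of Atp5g2 are uncertain, since 38.4% of the 50-base windows of its transcripts also occur in transcripts of other genes. For 20 of the 88 members this share was above 10%, and for 35 it was 0. Among the genes with values in the text, it was 25.5% for Uqcrb, 19.9% for Atp5h, 17.65% for Uqcrc2, 14.3% for Atp5f1, 13.8% for Cox7a2l and 11.1% for Atp5g1.

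Spread among AAV-GFP mice was small for most members. The median SD of log2(signal + 1) over these 3 mice was 0.23, and it was 0.19 in the 44 genes with the higher mean over all libraries and 0.33 in the others. Atp5f1, a stator subunit of the ATP synthase, varied least among AAV-GFP mice, with 120.2, 118 and 122 signal. It spread from 79.7 to 151 in mice labelled obese and from 104 to 182 in those labelled nonobese. Sdha followed and was at 298, 313 and 302, and Ndufa10, an accessory subunit of complex I, came next at 90.3, 89.8 and 83.7. The 3 genes that varied most were assembly factors with few reads. Ndufaf6 had 0.997, 7.28 and 9.52 signal in AAV-GFP mice, Ndufaf8 1.25, 5.55 and 11.5, and Atp5s 1.75, 5.74 and 10.7. Such values rest on few reads, as 0.997 signal is 4 reads, and the tests of these genes have wide errors.

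The first question was whether these genes differed between AAV-Cre and AAV-GFP mice in each subset. Summed over all 88, the signal was 6193, 5817 and 6198 in AAV-GFP mice. It was 5338, 6001 and 4986 in mice labelled obese, and 6396, 6967 and 6938 in mice labelled nonobese. All nonobese libraries lay above all AAV-GFP libraries, and the obese libraries overlapped AAV-GFP through library 2. As a share of all signal the nonobese and AAV-GFP groups overlapped. That share was 0.619%, 0.61% and 0.644% in AAV-GFP, 0.546%, 0.573% and 0.519% in the obese subset, and 0.634%, 0.677% and 0.69% in the nonobese subset. On this scale all obese libraries were below all others. The overlap of nonobese and AAV-GFP depends on the mitochondrially encoded entries, which gave 20.4% to 26.4% of all signal. As a share of the signal without them, the members held 0.830%, 0.789% and 0.834% in AAV-GFP. The shares were 0.698%, 0.779% and 0.652% in the obese subset and 0.855%, 0.911% and 0.924% in the nonobese subset, so no groups overlapped. In tissue such as this, fewer cells of a type and less RNA per cell cannot be told apart.

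Complex I gave 2270.4, 2046 and 2109 summed signal in AAV-GFP mice, 1774, 2071 and 1854 in the obese subset and 2323, 2512 and 2506 in the nonobese subset. The nonobese libraries were above all others. Complex III followed the same order, with 508, 479.7 and 484 in AAV-GFP, 472, 456 and 367 in the obese subset and 535, 686 and 658 in the nonobese subset, and its 3 groups did not overlap. Complex IV gave 1026, 904 and 986, then 893, 1003 and 747, then 1014, 1186 and 1169.6, so the nonobese subset overlapped AAV-GFP. Complex V had 1928, 1891 and 2141.5, then 1749, 2080.2 and 1585, then 2076, 2057 and 2169.8, and here no group stood clear of AAV-GFP. Complex II, the smallest, did not share the order of complexes I and III. Its sums were 461, 496 and 477 in AAV-GFP, 450.0, 391 and 433 in the obese subset, and 449, 526 and 435 in the nonobese subset. All obese sums of complex II were below all AAV-GFP sums, while the nonobese subset overlapped both other groups.

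**Figure D2:**
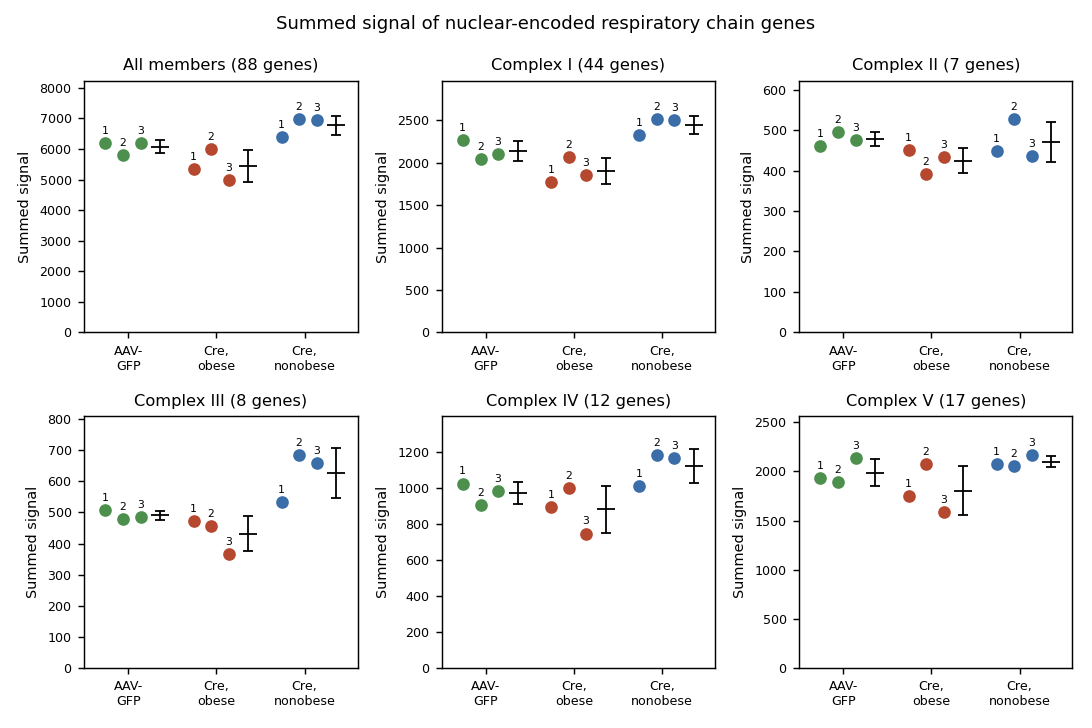
Summed signal per library (vertical axes from 0) of all 88 genes and of each complex, in AAV-GFP, AAV-Cre labelled obese and AAV-Cre labelled nonobese mice. Points are libraries with their replicate number, and bars are the mean ± SD of 3 mice. For all members the nonobese libraries sit between 6396 and 6967, above the AAV-GFP libraries at 5817 to 6198.

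Members were then tested singly with limma on log2(signal + 1), adjusted over all 13506 entries tested, and a call is an FDR under 0.1. Between mice labelled obese and AAV-GFP mice, 0 of 88 members passed, where 0.555% of all entries did. DESeq2 and both edgeR tests on recovered reads also called 0. At an unadjusted p under 0.05 the limma test gave 1 member higher and 4 lower, against 5.11% and 4.78% of all entries, so these shares of members (1.14% and 4.55%) were no larger than the background. Groups did not overlap for 3 members that were higher and 12 that were lower, or 3.41% and 13.6% of members against 7.18% and 7.27% of all entries. The median log2 FC of the members was −0.18, beside −0.04 for all entries, and 60 of 88 were negative. By complex it was −0.26 in I, −0.27 in II, −0.24 in III, −0.20 in IV and −0.08 in V.

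Ndufs1, the large iron-sulfur subunit of the NADH arm, was at 117, 72.4 and 98.9 signal in AAV-GFP mice and 71.1, 78.8 and 45.8 in mice labelled obese, with overlap and a log2 FC of −0.56 (SE 0.26, FDR = 0.465 from limma). Uqcrq, a small subunit of complex III, was at 70.1, 46.2 and 55.9 against 36.4, 38.1 and 36.5. All 3 obese libraries were below all AAV-GFP libraries, with a log2 FC of −0.60 (SE 0.29, FDR = 0.493 from limma).

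Cox7a2l was the single member with a higher level in the obese subset at an unadjusted p under 0.05. It encodes a relative of Cox7a2 that has been studied for a role in supercomplexes of complexes III and IV, which were not measured here. Its signal was 41.6, 65.3 and 54.4 in AAV-GFP mice, 99.2, 78.8 and 76.9 in mice labelled obese, and 58.5, 70.5 and 72.8 in mice labelled nonobese. The obese libraries lay above both other groups. Against AAV-GFP the log2 FC was 0.66 (SE 0.26, FDR = 0.356 from limma) for the obese subset and 0.33 (SE 0.26, FDR = 0.999 from limma) for the nonobese subset. Cox7a2 itself had 49.6, 55.9 and 59.6 signal in AAV-GFP and 65.9, 71.3 and 42.3 in the obese subset, on both sides of AAV-GFP, with a log2 FC of 0.09 (95% interval −0.50 to 0.68).

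In mice labelled nonobese against AAV-GFP, 0 of 88 members had an FDR under 0.1, as against 0.0148% of all entries, and DESeq2 and both edgeR tests called 0 as well. At an unadjusted p under 0.05 there were 3 members higher and 0 lower. The background was 1.04% higher and 1.23% lower, and 3.41% of members were higher. Groups did not overlap for 17 members that were higher and 1 that was lower, which is 19.3% and 1.14% of members against 4.57% and 5.15% of all entries. Of the 88 members 69 had a positive log2 FC, with a median of 0.21 beside −0.02 for all entries. The median was 0.38 in complex III, 0.26 in complex IV, 0.22 in complex I, 0.17 in complex V and −0.05 in complex II. Accessory subunits were positive in 49 of 56 cases and core subunits in 12 of 19. The difference between these roles was not tested.

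The 3 members with an unadjusted p under 0.05 were accessory subunits. Atp5k, the e subunit of the ATP synthase, which joins it into dimers (ENSMUSG00000050856, chromosome 5, 108433244 to 108434448), was at 68.3, 48.6 and 55.3 signal in AAV-GFP mice and at 91.9, 84.3 and 122 in mice labelled nonobese. The groups did not overlap, and the log2 FC was 0.78 (SE 0.27, unadjusted p = 0.0077, FDR = 0.999 from limma). Uqcr10 was at 27.2, 42.7 and 42.7 against 55.3, 71.0 and 58.9, and Uqcrh at 86.8, 90.6 and 79.8 against 96.4, 171 and 138, also without overlap. Ndufc2 and Ndufs4, accessory subunits of complex I, followed with log2 FCs of 0.59 (SE 0.29) and 0.52 (SE 0.26). None of these is a call.

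When the AAV-Cre subsets were averaged and set against AAV-GFP, the median log2 FC of the members was 0.01, beside −0.03 for all entries, and 49 of 88 were positive. With libraries centred on their medians it was −0.02, with 37 of 88 positive. Limma called 0 members at an FDR under 0.1 (0.0444% of all entries), and so did DESeq2 and both edgeR tests. At an unadjusted p under 0.05 limma had 2 higher and 1 lower, near the background of 2.4% and 1.91%. The higher ones were Atp5k (0.56) and Cox7a2l (0.50). Ndufa10 was the single member for which all 6 AAV-Cre mice lay above all 3 AAV-GFP mice. This is 1.14% of members, near the 0.933% of all entries for which the same held. Ndufa10 was at 108, 100.8 and 96.4 signal in the obese subset and at 113, 111 and 100.1 in the nonobese subset. The log2 FC was 0.25 (SE 0.18, FDR = 0.991 from limma). Its 2-sided exact permutation p was 0.0238, the smallest that 6 mice against 3 allow.

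**Figure D3:**
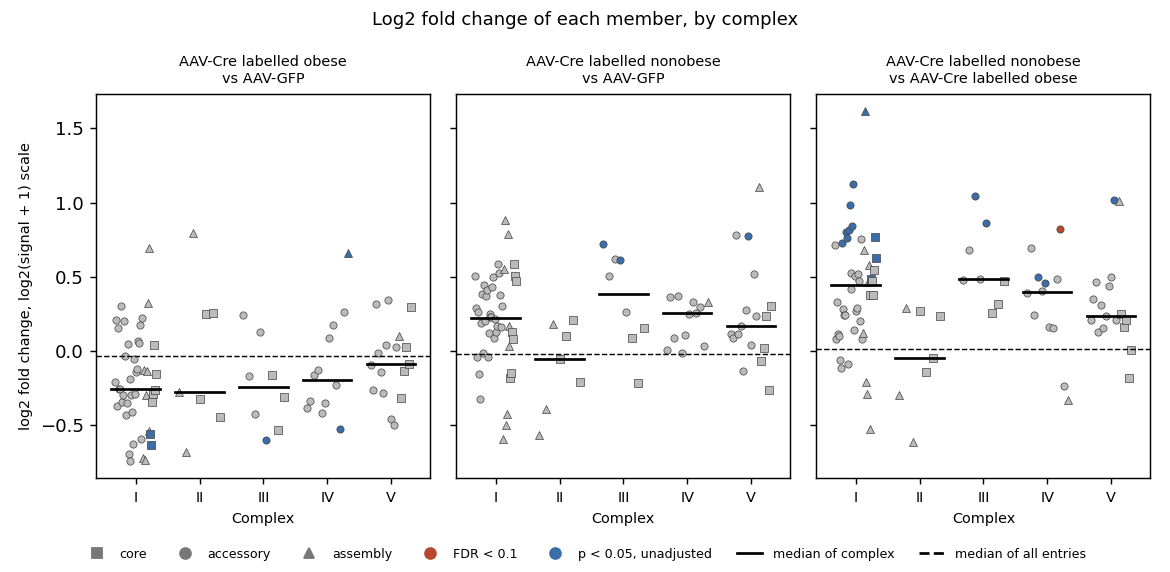
Log2 fold change on the log2(signal + 1) scale of each of the 88 genes, by complex, in 3 comparisons. Symbols mark core subunits, accessory subunits and assembly factors, colour marks an FDR under 0.1 or an unadjusted p under 0.05, solid lines are medians of a complex and the dashed line that of all 13506 entries. In mice labelled nonobese against mice labelled obese, 75 of 88 genes are above 0 and Cox8a, in complex IV, is the only one with an FDR under 0.1.

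The median difference of the members was widest between the AAV-Cre subsets. In mice labelled nonobese against mice labelled obese, 1 member had an FDR under 0.1 (1.14% of members, against 0.948% of all entries), a share near the background. At an unadjusted p under 0.05, 17 members were higher and 0 lower in the nonobese subset, which is 19.3% of members where 5.13% of all entries were higher and 6.26% lower. Groups did not overlap for 24 members that were higher and 1 that was lower (27.3% and 1.14%, against 6.61% and 6.65%). The lower 1 was Cox7a2l. The median log2 FC was 0.34, beside 0.02 for all entries. It was positive in 8 of 8 genes of complex III (median 0.48), 38 of 44 of complex I (0.44), 10 of 12 of complex IV (0.40) and 16 of 17 of complex V (0.24), but in 3 of 7 of complex II (−0.05). Accessory subunits were higher in 52 of 56 cases, core subunits in 16 of 19 and assembly factors in 7 of 13.

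Cox8a, the single gene that passed, encodes the ubiquitous isoform of subunit VIII of cytochrome c oxidase (ENSMUSG00000035885, chromosome 19, 7215153 to 7217616). Its signal was 94.5, 97.8 and 98.0 in mice labelled obese, 160.1, 122 and 140.4 in AAV-GFP mice, and 141, 187 and 193 in mice labelled nonobese. The obese libraries were nearly alike and lay below both other groups, whereas the nonobese and AAV-GFP groups overlapped. The nonobese subset was 1.77-fold higher than the obese subset, a log2 FC of 0.83 (SE 0.20, FDR = 0.064 from limma). Over 22 alternatives the log2 FC stayed between 0.74 and 0.97, and the FDR ran from 0.00772 to 0.302, under 0.1 in 15. It was 0.157 with only the groups compared in the fit and 0.302 with no variance trend. It was 0.236 without obese library 1, 0.183 without obese library 3, 0.224 without nonobese library 2 and 0.254 without nonobese library 3. No window of its transcripts is shared with other genes. Without libraries 1 and 3 of the obese subset, which hold the immune RNA, the log2 FC was 0.81 (FDR = 0.239 from limma). That value rests on 1 obese library, which is assumed to vary as the other groups do.

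Next in order came 4 accessory subunits that were not calls. Ndufa5, of the arm of complex I that reduces quinone, was at 63.7, 69.0 and 69.2 signal in the obese subset, 95.7, 82.5 and 79.4 in AAV-GFP mice and 99.6, 112 and 126 in the nonobese subset, without overlap of any pair of groups. Its log2 FC between the subsets was 0.73 (SE 0.22, FDR = 0.164 from limma). Atp5mpl, a small membrane subunit of the ATP synthase, had the same order with 18.9, 25.9 and 21.6, then 32.2, 28.9 and 33.4, then 39.9, 46.1 and 51.0, and a log2 FC of 1.02 (SE 0.34, FDR = 0.21 from limma). Uqcrb, which binds ubiquinone in complex III, was at 42.1, 42.0 and 20.7 against 52.7, 111 and 57.6. Its log2 FC of 1.05 (SE 0.34, FDR = 0.194 from limma) leaned on 1 high and 1 low library. Uqcrq was at 36.4, 38.1 and 36.5 against 50.05, 83.8 and 74.9, a log2 FC of 0.86 (SE 0.29, FDR = 0.211 from limma).

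**Figure D4:**
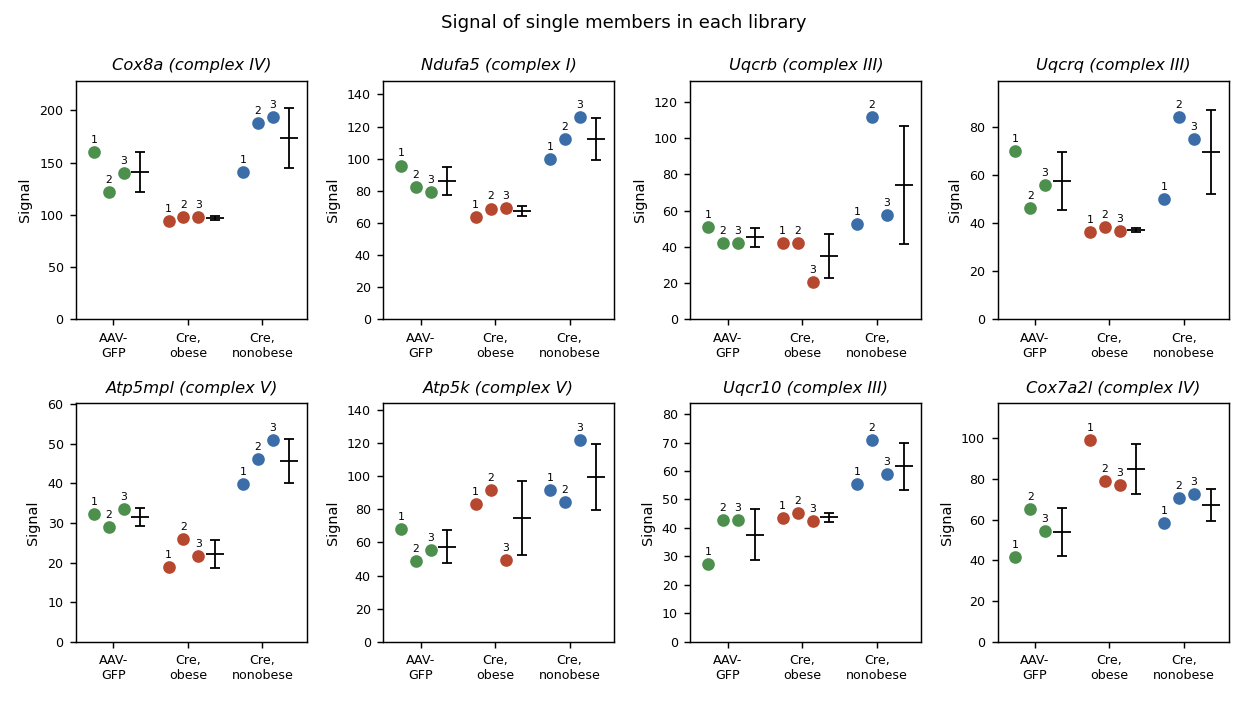
Signal (vertical axes from 0) of 8 members in each of the 9 libraries. Points are libraries with their replicate number and bars are the mean ± SD of 3 mice. The obese libraries of Cox8a are at 94.5 to 98.0, below the other groups, and those of Cox7a2l at 76.9 to 99.2, above them.

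Core subunits had a median log2 FC of 0.27 between the subsets, accessory subunits of 0.41 and assembly factors of 0.12, and the differences between these roles were not tested. Among core subunits, Ndufv1, which binds NADH, was at 38.9, 39.5 and 58.1 signal in mice labelled obese and 65.1, 82.8 and 84.3 in mice labelled nonobese, with 60.6, 52.5 and 48.9 in AAV-GFP mice, and its log2 FC was 0.77 (SE 0.27, FDR = 0.247 from limma). The obese and nonobese libraries did not overlap. Ndufv2, its partner in the NADH arm, was also higher without overlap, by a log2 FC of 0.63 (SE 0.26). For the catalytic subunits of complex V no such difference was seen: Atp5b was at 514, 647 and 451 against 622, 538 and 627, with a log2 FC of 0.16 (95% interval −0.15 to 0.47), and Atp5a1 at 315, 403 and 367 against 401, 452 and 433, with 0.25 (95% interval −0.07 to 0.57). Both pairs of groups overlapped. Sdha was at 258, 226 and 247 against 288, 351 and 249 (0.27, 95% interval −0.07 to 0.61), and Sdhb at 90.2, 74.9 and 73.7 against 61.6, 100.8 and 59.1 (−0.14, 95% interval −0.67 to 0.38). The intervals of Atp5b, Atp5a1 and Sdha include 0.41, the median of accessory subunits.

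Among assembly factors Ndufaf3, which helps to build the quinone-reducing arm of complex I, had the largest log2 FC between the subsets, 1.62 (SE 0.56, FDR = 0.242 from limma), with 3.15, 7.26 and 9.06 signal in the obese subset against 18.4, 25.9 and 18.1. Ndufaf1, an assembly factor of the membrane arm, had 2 reads in library 2 of the obese subset, 0.454 signal, against 12.2 and 4.88 in the others of that subset. No fold is given for a library at that depth.

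Cell type markers also differed between the libraries, only in part in the order of the members. In libraries 1 and 3 of the obese subset, the median difference of the members from the AAV-GFP mean was −0.20 and −0.23 (log2), and it was 0.03 in library 2. It lay between −0.04 and 0.09 in AAV-GFP mice and was 0.14, 0.21 and 0.29 in the nonobese subset. The summed signal of 5 neuron markers (Map2, Rbfox3, Snap25, Stmn2 and Syt1) was 3162 and 2945 in those 2 obese libraries and 4544 in library 2, against 3757 to 4283 in AAV-GFP mice and 3734 to 5041 in the nonobese subset. Library 3 of the nonobese subset had the highest median difference of the members but the lowest neuron marker sum of its subset, 3734. All 5 neuron markers had positive log2 FCs between the subsets, with a median of 0.34, and 3 had an unadjusted p under 0.05 (0 calls in limma). None of these markers was at 0 reads. Astrocyte markers summed to 1235 and 1646 in the same 2 libraries, 832 in library 2 and 575 to 788 in the other groups, and microglia markers to 326 and 273, 87.6 and 72.8 to 109. Gfap and Aqp4 of the astrocyte list and Cd74, Jchain and Igkc of the leukocyte list had FDRs under 0.1 in mice labelled obese, against both other groups, and Csf1r of microglia, Vim of the tanycyte list and 1 of 5 oligodendrocyte markers did so between the subsets. All 5 oligodendrocyte markers had higher levels in the nonobese than in the obese subset (median log2 FC 0.89), and 4 of 5 had an unadjusted p under 0.05 for a lower level in the obese subset than in AAV-GFP mice. Of the leukocyte list, Cd3e and Cd79a were at 0 reads in library 2 of the obese subset and in all nonobese libraries. Oligodendrocyte markers summed to 764 to 983 in the obese subset, 1096 to 2429 in the nonobese subset and 1097 to 1668 in AAV-GFP mice. Endothelial markers summed to 122 to 177, 102 to 107 and 82.5 to 113 in the same order, red blood cell markers to 17.1 to 39.0 over all libraries, and Vim, the single tanycyte marker with an entry, was at 132 and 99.2 in obese libraries 1 and 3 and at 11.3 to 28.3 in the others. The part of these in the results on the members was not tested.

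Without libraries 1 and 3 of the obese subset, an alternative chosen after seeing the data, the median log2 FC of the members against AAV-GFP was 0.035 for the obese mouse left in, in place of −0.18. Between the subsets it was 0.14 in place of 0.34. The comparison of the nonobese subset with AAV-GFP does not use these libraries other than for the estimate of spread, and its median remained 0.21.

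**Figure D5:**
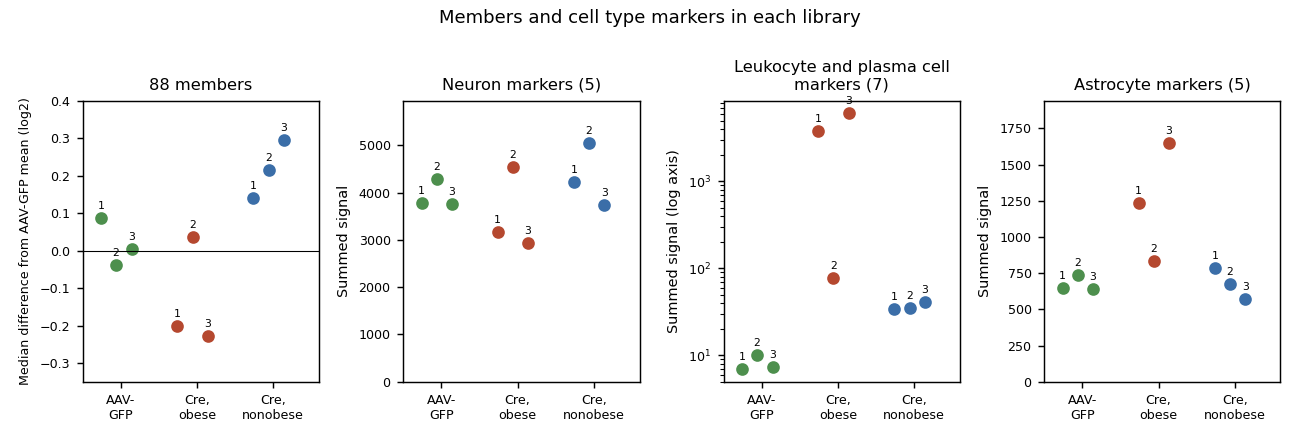
From left to right, the median difference of the 88 members from the AAV-GFP mean (log2) and the summed signal of neuron, leukocyte and plasma cell (log axis) and astrocyte markers, in each library. Points are libraries with their replicate number. Libraries 1 and 3 of the obese subset are lowest for the members (−0.20 and −0.23) and for neuron markers, and highest for the other lists.

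The remaining genes of the pathway were read from fixed lists. Of the 13 subunits that mitochondrial DNA encodes, 12 had an entry. None had an FDR under 0.1 in limma in any comparison. All 12 had positive log2 FCs in the nonobese subset against AAV-GFP (median 0.24, 3 with an unadjusted p under 0.05) and against the obese subset (median 0.28, 4 with an unadjusted p under 0.05). The latter were mt-Co3 (0.58, SE 0.16, FDR = 0.112 from limma), mt-Nd3 (0.78, SE 0.22), mt-Co2 (0.50, SE 0.18) and mt-Cytb (0.34, SE 0.16), which encode subunits of complexes IV, I, IV and III. Against AAV-GFP the obese subset had 3 of 12 positive, with a median of −0.09. Their summed signal did not order the libraries as the nuclear genes did: it was 34183, 37790.0 and 34606 in AAV-GFP, 32685, 44875 and 27612 in the obese subset, and 41487, 53283 and 33463 in the nonobese subset, so all groups overlapped.

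Of 36 further genes (cytochrome c, cytochrome c1 and assembly factors outside the named families), 0 passed an FDR of 0.1 in limma. Between the subsets 23 were higher in mice labelled nonobese (median log2 FC 0.16), with 3 at an unadjusted p under 0.05. These were Tmem70, an assembly factor of the ATP synthase (1.60, SE 0.46), Coa3, one of complex IV (1.16, SE 0.45), and Foxred1, one of complex I (1.10, SE 0.47). Regulators of mitochondrial biogenesis, which include Nrf1, Gabpa, Yy1 and Ppargc1a, gave 0 calls among 14 genes in each comparison. Their median log2 FC was −0.13 between the subsets, −0.17 in the obese and −0.17 in the nonobese subset against AAV-GFP, and their summed signal lay between 255 and 309.6 in all 9 libraries. At an unadjusted p under 0.05 there was only Polg, the mitochondrial DNA polymerase, lower in the obese subset (−1.20, SE 0.47, FDR = 0.365 from limma).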

How the data were processed

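RNA of laser-captured mediobasal hypothalamus (500 pg per mouse, a stranded low-input kit, single 50-base reads) was sequenced from 9 mice, 3 a group, each as its own library. The authors mapped the reads to GRCm38 with TopHat2 2.0.11, and the processing notes also name CASAVA 1.7, HTSeq, edgeR and limma. Whether counting used the strand is not given in the sources used here, and exons of 29 members overlap a gene on the opposite strand. The deposited table holds signal, which is CPM on library sizes that the authors had scaled by TMM. In each library 100% of values were whole multiples of 1 read, within 0.1 read, so reads were recovered for count tests.

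Tests were made with limma 3.58.1 in R 4.3.3, on log2(signal + 1), with 3 group means and a variance trend. Entries needed a signal of 1 or more in 3 or more libraries, and p-values were adjusted by Benjamini-Hochberg over the 13506 that passed. A call is an FDR under 0.1, the study's threshold. These log2 FCs understate changes of low genes. The design had named CPM, and the same test was used for signal. All AAV-Cre means the average of both subset means. The alternatives tried were other pseudocounts (0.1, 5), another filter (a signal of 5) or none, a fit to only the groups compared, centring on library medians, quantiles, limma without the trend, a block for the replicate number, and an FDR of 0.05. Recovered reads were tested with DESeq2 1.42.0 and with the quasi-likelihood and likelihood ratio tests of edgeR 4.0.16, and each mouse was left out in turn. Exact permutation tests were 2-sided, and 3 mice against 3 cannot go below 0.1. The fits were tested on simulated data.

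Members and lists were chosen with earlier results of these data known. Members are named if they are fixed core subunits or paralogs, have an FDR under 0.1 or are among the 5 lowest p values of a comparison, are highest or lowest per kb in a complex, or are among the 3 most or least variable in AAV-GFP mice, and other members named were chosen after their values were seen. Results for some genes that meet these rules are not reported here. List genes are named where they have an FDR under 0.1, up to 3 a list, and others after seeing their values. Positions, lengths and overlaps come from GENCODE M21, promoters from RefSeq. Main transcript length is the median of the top-ranked APPRIS transcripts. The labels do not say that mice of a group came from separate litters, so p-values measure the spread between these mice.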

Additional observations from a re-analysis of the deposited data

Results flagged for a closer look

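Cox8a was the member whose change against AAV-GFP differed between the AAV-Cre subsets by the test of that difference itself. Its log2 FC was 0.83 higher in the nonobese than in the obese subset (FDR = 0.064 from limma), with 3 of 3 nonobese libraries above 3 of 3 obese libraries.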

How the results depend on the processing

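The count of members called was 0 in each comparison with AAV-GFP under all alternatives. Between the AAV-Cre subsets it was 1, the gene Cox8a. It fell to 0 with only the groups compared in the fit, without a variance trend and at an FDR under 0.05. It was 2 with edgeR's likelihood ratio test (Cox8a and Ndufa5), where 355 of 13387 entries were called. With DESeq2 it was 3 (these and Atp5mpl), where 402 of 13588 entries were called. Leaving out 1 mouse gave 0 to 6 members. The count was 0 without replicate 1 or 3 labelled obese or replicate 2 or 3 labelled nonobese, where 2 to 61 entries were called. It was 6 without replicate 2 labelled obese, where 906 of 13482 entries were called. In the fits with 2, 3 and 6 members called, the share of members was near that of all entries. Without libraries 1 and 3 of the obese subset, the median log2 FC of the members turned to 0.035 in the obese subset (main value −0.18), 0.13 in all AAV-Cre mice (0.01) and 0.14 between the subsets (0.34); the cause was not tested. All other medians moved by less than the SD between replicates (0.10), and leaving out 1 mouse gave −0.27 to −0.10, 0.17 to 0.24, −0.02 to 0.04 and 0.29 to 0.40 in the order obese, nonobese, all AAV-Cre and between subsets. Median centring moved the median of all entries in the obese comparison from −0.04 to −0.11 and that of the members to −0.25. Of 440 values of named members under alternatives, 0 changed sign, 7 lost a call (all Cox8a) and 6 gained one. Deviations of same-numbered mice correlated by −0.02 to 0.09, and those of mice with different numbers by −0.09 to 0.04. These weak correlations do not settle whether the replicate numbers pair the mice. With the number as a block, the members called were 0, 0, 0 and 1 and the medians −0.18, 0.21, 0.01 and 0.34, as without it. Over all entries, the calls rose from 75, 2, 6 and 128 to 200, 3, 8 and 271. Genes with a few reads, mostly assembly factors, are limited by depth.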

Other observations

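Other energy pathways were read from fixed lists. In glycolysis, 14 of 16 genes had negative log2 FCs in mice labelled obese against AAV-GFP (median −0.19). Eno2, the neuronal enolase, was the single call, at −0.65 (SE 0.16, FDR = 0.0755 from limma), and between the subsets 14 of 16 were higher in mice labelled nonobese (median 0.18, 0 calls in limma, 2 at an unadjusted p under 0.05). Their summed signal was 2938 to 3228 in the obese subset, 3462 to 3759 in AAV-GFP mice and 3189.9 to 3736 in the nonobese subset.

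The 16 genes of the tricarboxylic acid cycle and pyruvate dehydrogenase did not share the direction of the respiratory chain. Between the subsets 8 of 16 were higher in mice labelled nonobese, with a median log2 FC of −0.05 and 0 calls in limma (2 at an unadjusted p under 0.05). Of 15 other proteins of mitochondrial membranes, 11 were higher in mice labelled nonobese (median 0.15). Vdac1, the main channel of the outer membrane, had a log2 FC of 0.68 between the subsets (SE 0.19, FDR = 0.13 from limma) and −0.66 in the obese subset against AAV-GFP (SE 0.19, FDR = 0.186 from limma).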
